A study of Homo sapiens with 8 samples.

Results

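The genes of the aryl hydrocarbon receptor (AHR) pathway and of the CYP1 family were examined in CYP2C19-overexpressing HepG2 cells treated with plastic-related phenolic antioxidants. The set holds 7 of the 60230 genes in the count table and was chosen by symbol: AHR, its partner ARNT, its repressor AHRR, and the AHR targets CYP1A1, CYP1A2, CYP1B1 and TIPARP. HepG2 cells are an established line from a human liver tumour, and every group, the control included, carried the overexpressed cytochrome CYP2C19 under blasticidin selection. The 4 groups were DMSO (the solvent control), compound 4, compound 5 and compound 6, each compound given for a day at its own IC50, the concentration that lowers viability to the midpoint of the dose curve. Each group had 2 replicates, which the labels name day 1 and day 2. No source says that they were separate cultures, so p-values measure only the spread between these samples, which may be technical. Compounds 4 and 6 both consist of a pair of methyl-bearing phenol rings joined by a methylene bridge, with a tert-butyl group on each ring of compound 4 where compound 6 has a cyclohexyl group. In compound 5 the phenol rings are joined through an ethane bridge and carry only tert-butyl groups.

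AHR is a ligand-activated transcription factor of the bHLH-PAS family that is held in the cytoplasm by a chaperone complex built on HSP90. After binding planar aromatic pollutants, drugs or tryptophan metabolites, it enters the nucleus, pairs with ARNT and binds response elements with the core GCGTG. In liver cells its best-known targets are the CYP1 monooxygenases, which oxidize polycyclic aromatic compounds, and the feedback inhibitors AHRR and TIPARP.

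Expression is given as CPM, in which each count is divided by the normalized total of its library. The total per library was between 9791659 and 17814595 counts, and mitochondrially encoded genes took between 4.69% and 7.77% of it. Changes are log2-fold changes from edgeR's quasi-likelihood test in a fit of all 8 samples, with p-values adjusted by the Benjamini-Hochberg method over 13400 genes that passed a filter on low counts, and an adjusted p under 0.05 was the threshold. AHR, ARNT, CYP1A1 and TIPARP passed the filter, which is 4 of the 7 genes, whereas AHRR, CYP1A2 and CYP1B1 had too few counts for a test. The 3 comparisons with DMSO share the same 2 control libraries. In bulk RNA, a change in the number of expressing cells and a change in RNA per cell cannot be told apart.

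The promoters of 4 genes are shown because they differ in whether they hold the core of the AHR response element close to the start of transcription. They are RefSeq sequences on GRCh38.p14, from 250 bases before to 50 bases after the start and 300 bases long, written 5′ to 3′ on the strand of the gene. Capitals mark GCGTG, or CACGC where the core lies on the opposite strand.
CYP1A1, chr15:74725479-74725778, minus strand: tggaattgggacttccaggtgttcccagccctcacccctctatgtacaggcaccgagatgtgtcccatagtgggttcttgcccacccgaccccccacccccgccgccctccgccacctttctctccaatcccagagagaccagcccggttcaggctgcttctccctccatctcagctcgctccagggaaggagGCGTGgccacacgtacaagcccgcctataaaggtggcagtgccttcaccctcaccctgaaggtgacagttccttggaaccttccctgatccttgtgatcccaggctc
CYP1A2, chr15:74748595-74748894, plus strand: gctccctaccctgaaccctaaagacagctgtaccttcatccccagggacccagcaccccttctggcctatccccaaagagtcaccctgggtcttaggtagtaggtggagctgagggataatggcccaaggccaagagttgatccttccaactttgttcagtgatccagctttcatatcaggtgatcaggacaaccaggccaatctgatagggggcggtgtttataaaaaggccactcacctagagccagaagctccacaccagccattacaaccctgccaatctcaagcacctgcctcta
TIPARP, chr3:156674340-156674639, plus strand: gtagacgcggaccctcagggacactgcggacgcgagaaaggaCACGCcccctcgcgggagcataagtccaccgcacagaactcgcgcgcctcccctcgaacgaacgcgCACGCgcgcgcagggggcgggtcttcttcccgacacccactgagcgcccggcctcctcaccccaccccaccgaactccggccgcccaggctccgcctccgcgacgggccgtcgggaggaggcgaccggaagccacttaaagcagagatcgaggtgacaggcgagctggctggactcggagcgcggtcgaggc
AHR, chr7:17298402-17298701, plus strand: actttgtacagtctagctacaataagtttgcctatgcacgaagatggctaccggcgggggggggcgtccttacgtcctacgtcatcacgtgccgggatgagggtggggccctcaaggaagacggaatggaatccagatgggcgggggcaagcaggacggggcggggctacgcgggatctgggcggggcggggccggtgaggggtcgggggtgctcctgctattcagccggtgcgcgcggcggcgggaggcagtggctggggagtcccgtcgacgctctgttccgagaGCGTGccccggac

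The CYP1A1 window holds 1 core on the strand of the gene, 57 bases before the start. The cluster of response elements known for this gene lies farther upstream than the window. The CYP1A2 window holds 0 cores, the TIPARP window holds 2 on the opposite strand at 208 and 142 bases before the start, and the AHR window holds 1 at 37 bases past the start. The search covered both strands of 9 windows belonging to 6 of the 7 genes, with CYP1B1 unmatched. The ARNT window and the other 2 windows of TIPARP hold 0 cores, and the windows of AHRR hold 1 and 2. The core was present in 36.5% of 35116 promoters of the same length, and its extended form TNGCGTG in 5.5%. Among the windows searched, only the first of AHRR holds the extended form. A match of letters is a description and not evidence of binding.

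The AHR target CYP1A1, which oxidizes polycyclic aromatic compounds, rose under all 3 compounds, and most under compound 4. Its level was 5.94 and 4.69 CPM in replicates 1 and 2 of DMSO, from 58 and 56 counts. Under compound 4 it was 59.5 and 69.1 CPM, from 634 and 909 counts. Under compound 5 it was 10.8 and 9.05 CPM, and under compound 6 it was 15.5 and 23.2 CPM. The 8 libraries thus formed an order of groups without overlap, with DMSO lowest, followed by compound 5, compound 6 and compound 4. Of all genes tested, 30.4% lay above DMSO in this way under compound 4, 31% under compound 5 and 29.3% under compound 6, and 22.7%, 19% and 25.1% were separated upwards for compound 4 over 5, 4 over 6 and 6 over 5. Mean CYP1A1 levels in CPM were 5.32 ± 0.887 (SD, n = 2) in DMSO cells, 64.3 ± 6.81 after compound 4, 9.92 ± 1.23 after compound 5 and 19.4 ± 5.45 after compound 6.

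**Figure D1:**
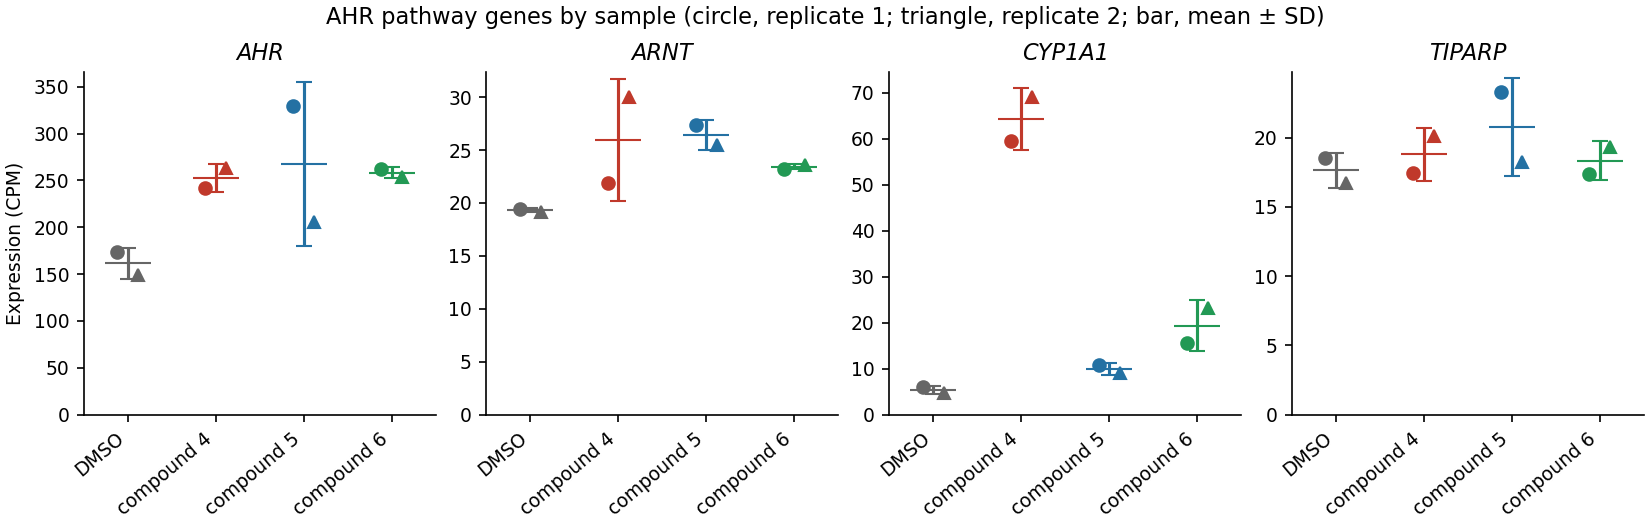
Expression in CPM (linear axes from 0) of AHR, ARNT, CYP1A1 and TIPARP in each library of the 4 groups, with circles for replicate 1, triangles for replicate 2, and bars for mean ± SD (n = 2). CYP1A1 separates the 4 groups, AHR and ARNT lie above DMSO in all compound libraries, and TIPARP overlaps with DMSO under each compound.

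Under compound 4, CYP1A1 was 12.2-fold higher than in DMSO (95% interval 8.59 to 17.2), a log2-fold change of 3.60 ± 0.22 (SE) with an adjusted p of 8.8e-05 by edgeR's quasi-likelihood test. Of 13400 genes tested it had the 4th smallest p and the 36th largest increase. CYP1A1 was the 1 gene called among the 4 tested under compound 4, where 9.51% of all genes tested were called, 5.6% higher and 3.91% lower. These 1275 genes became 390 without DMSO replicate 1, 43 without DMSO replicate 2 and 152 without compound 4 replicate 2. This increase passed the threshold under all 14 alternatives tried, with log2-fold changes between 3.44 and 3.77 and adjusted p between 1.4e-71 and 0.004.

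Under compound 6, CYP1A1 was 3.66-fold higher (95% interval 2.56 to 5.24), with a log2-fold change of 1.87 ± 0.23 (SE) and an adjusted p of 0.023 in the edgeR test. Here only 0.575% of all genes tested were called, 0.493% higher and 0.0821% lower, and CYP1A1 was the 1 gene called among the 4. These 77 genes became 5 and 2 without DMSO replicates 1 and 2, 4 without compound 6 replicate 2, and 432 and 396 without compound 5 replicates 1 and 2. It had the 7th smallest p and the 107th largest increase. The call was lost without DMSO replicate 1 (adjusted p = 0.093), without DMSO replicate 2 (0.33) and without compound 6 replicate 2 (0.13), where the log2-fold change was 2.03, 1.71 and 1.55. It held under the other 11 of 14 alternatives, and adjusted p ranged from 1.4e-17 to 0.33 over all of them.

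Under compound 5, CYP1A1 was 1.87-fold higher (95% interval 1.29 to 2.70), with a log2-fold change of 0.90 ± 0.24 (SE) and an adjusted p of 0.048 in the edgeR test. AHR also passed the threshold, so 2 of the 4 genes were called, where 8.3% of all genes tested were called, 5.35% higher and 2.95% lower. These 1112 genes became 77 and 46 without DMSO replicates 1 and 2, 118 without compound 5 replicate 1 and 1814 without compound 5 replicate 2. The CYP1A1 value lay close to the threshold and was called in 6 of 14 alternatives, with adjusted p between 0.00035 and 0.26. A fit blocked by replicate number gave an adjusted p of 0.051. Left out in turn, both DMSO libraries, both compound 4 libraries and compound 5 replicate 1 each ended the call, with adjusted p between 0.054 and 0.26, while the log2-fold change stayed between 0.73 and 1.06.

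**Figure D2:**
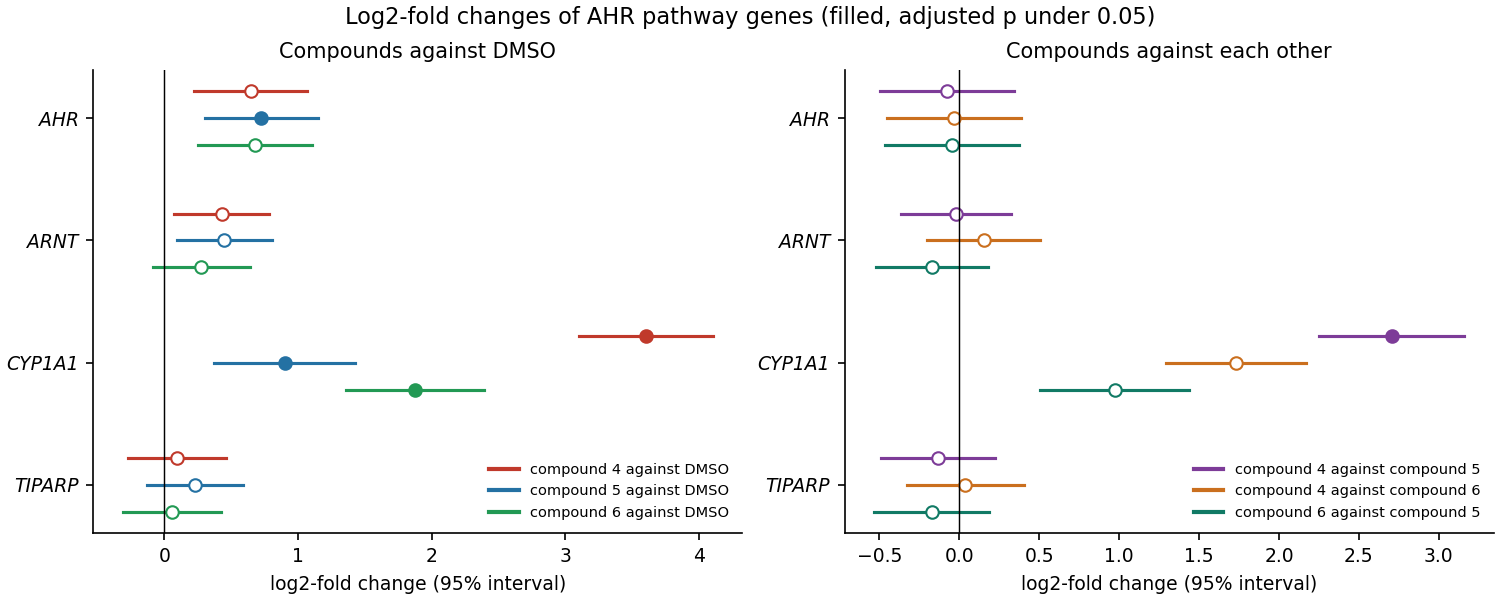
Log2-fold changes (points) with 95% intervals (lines) of AHR, ARNT, CYP1A1 and TIPARP for the compounds against DMSO and against each other, with filled points for an adjusted p under 0.05. CYP1A1 under compound 4 lies at 3.60, the highest point plotted, with an interval that overlaps that of CYP1A1 for compound 4 against compound 5.

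The compounds were compared with each other in 3 pairs. Each was given at its own IC50, and the paper describes these IC50 values as rather comparable. They were measured after a longer exposure than that before RNA was taken. CYP1A1 was 6.52-fold higher under compound 4 than under compound 5 (95% interval 4.76 to 8.94), with an adjusted p of 0.001 by edgeR's quasi-likelihood test, and this difference was called in all 14 alternatives. It was the 1 gene called among the 4 in a comparison in which 0.313% of all genes tested were called. CYP1A1 was 3.32-fold higher under compound 4, the tert-butyl form, than under compound 6, the cyclohexyl form (95% interval 2.45 to 4.49). Its p of 5.8e-06 was the smallest of 13400 in the edgeR fit, yet the adjusted p was 0.055 and did not pass. In this comparison 0 genes (0%) passed the edgeR threshold, 945 had an unadjusted p under 0.05, and 59 were called by the Wald test of DESeq2. The CYP1A1 difference was called in 6 of 14 alternatives, with adjusted p between 2.9e-20 and 0.32, among them the Wald test and the fits without either compound 5 library or without compound 6 replicate 2. Compound 6 gave a CYP1A1 level 1.96-fold that of compound 5 (95% interval 1.42 to 2.71), with an adjusted p of 0.063 in the edgeR test, and 3 of 14 alternatives called it, with adjusted p between 2.3e-05 and 0.23. In that comparison 1.03% of all genes tested were called.

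The neighbour of CYP1A1 on chromosome 15, CYP1A2, which oxidizes caffeine and aromatic amines, was close to undetected. The genes are arranged head to head, with CYP1A1 at chr15:74719542-74725610 on the minus strand, CYP1A2 at chr15:74748844-74756202 on the plus strand, and 23234 bases between their starts (GRCh38, GENCODE 29). CYP1A2 had 5 and 1 counts in replicates 1 and 2 of compound 4, 1 count in replicate 1 of compound 6 and 0 in the other 5 libraries. The 7 counts thus fell in the compounds with the higher CYP1A1 levels, but 7 of the 8 libraries had at most 1 count, and no fold is given. CYP1B1, an enzyme of oestrogen and polycyclic aromatic compound metabolism (chr2:38066973-38109902), had 0 counts in all 8 libraries. AHRR, which competes with AHR for ARNT (chr5:304176-438291), had 1 count in replicate 1 of compound 6 and 0 elsewhere. A count of 0 allows up to 3 counts, which corresponds to between 0.171 and 0.307 CPM per library, so lower levels of these genes were not detectable at this depth. AHRR overlaps PDCD6 on the same strand, which had between 545 and 1291 counts per library, and a read-through gene of both had between 0 and 7.

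AHR itself, encoded at chr7:16916359-17346152, was higher in every compound library than in both DMSO libraries. Its level was 173.2 and 149.4 CPM in DMSO, 241.8 and 263.1 CPM under compound 4, 329.2 and 205.1 CPM under compound 5, and 262.5 and 253.9 CPM under compound 6. The replicates of compound 5 lay farthest apart, with replicate 1 the highest and replicate 2 the lowest of the 6 compound libraries. In each comparison with DMSO, CYP1A1, AHR and ARNT did not overlap with it, which makes 3 of the 4 genes. The shares of all genes tested with this separation in a single comparison, 29.3% to 31%, are given above for CYP1A1. The share separated under all 3 compounds at once was not computed.

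AHR was 1.66-fold higher under compound 5 (95% interval 1.23 to 2.22), with a log2-fold change of 0.73 ± 0.19 (SE) and an adjusted p of 0.046 in the edgeR test. Of 14 alternatives, 5 were past the threshold, with adjusted p between 6.9e-07 and 0.24. Without compound 5 replicate 1 the log2-fold change was 0.34 (adjusted p = 0.24), without compound 5 replicate 2 it was 1.03 (adjusted p = 0.0043), and leaving out any single library other than that one ended the call. Under compound 4 the fold was 1.57 (95% interval 1.17 to 2.10), with an adjusted p of 0.061, and blocking by replicate number gave 0.041. Over the 14 alternatives it was between 2.1e-05 and 0.33 and passed in 6. Under compound 6 the fold was 1.60 (95% interval 1.19 to 2.15), with an adjusted p of 0.11, between 1.5e-05 and 0.55 over the alternatives, of which 5 passed. The point estimates under the 3 compounds were close to each other, and log2 differences between compounds were −0.08, −0.03 and −0.05 for 4 against 5, 4 against 6 and 6 against 5, with intervals from −0.50 to 0.34, −0.45 to 0.39 and −0.47 to 0.37. As folds, the bounds of these intervals lay between 0.707 and 1.31.

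**Figure D3:**
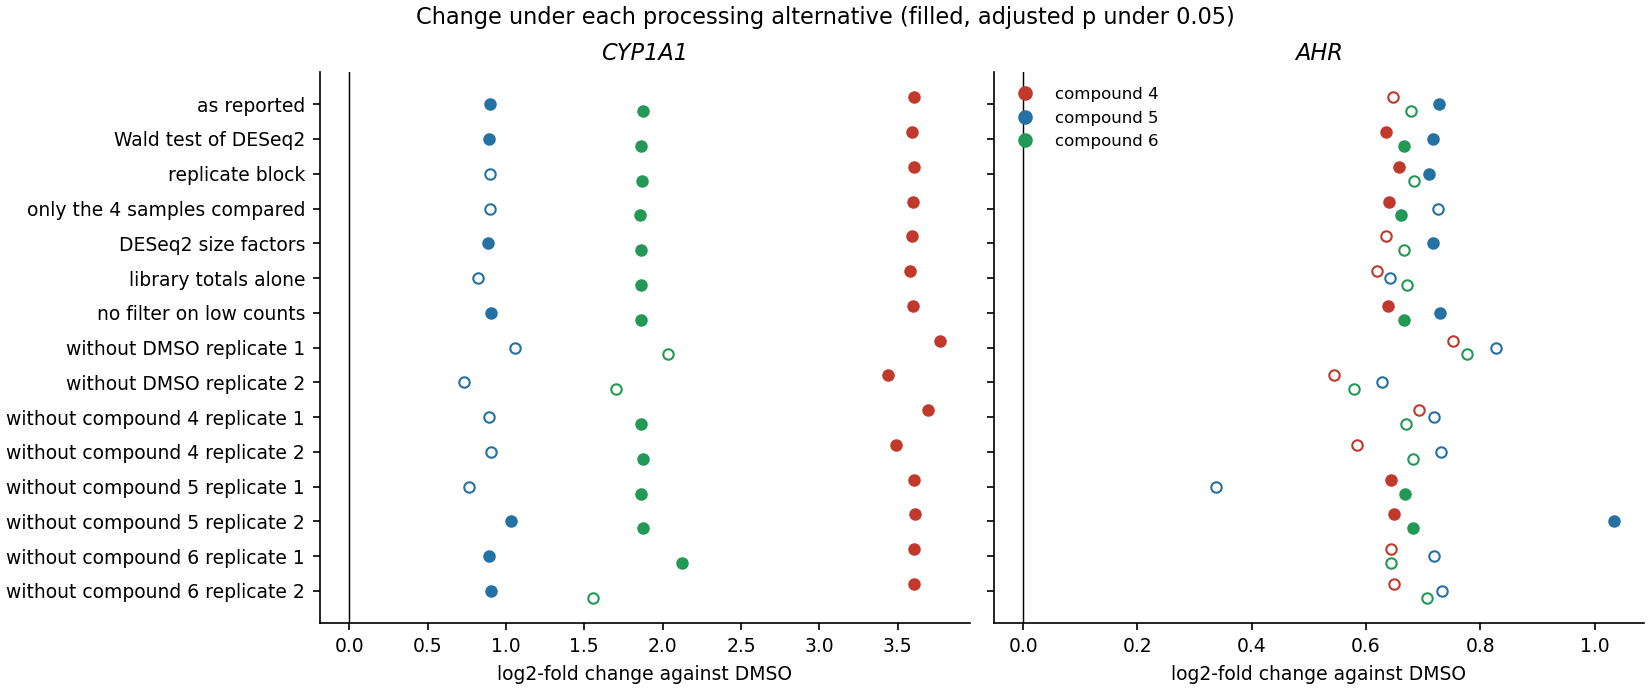
Log2-fold change against DMSO (x axis) of CYP1A1 and AHR under each compound, as reported and under the 14 alternatives (y axis), with filled points for an adjusted p under 0.05. CYP1A1 under compound 4 is filled in every row, whereas AHR values between 0.34 and 1.03 are filled in some rows and open in others.

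ARNT, the partner with which AHR binds DNA (chr1:150809705-150876768), had 19.5 and 19.2 CPM in DMSO, 21.9 and 30.0 CPM under compound 4, 27.4 and 25.4 CPM under compound 5, and 23.3 and 23.6 CPM under compound 6. All 6 compound libraries lay above DMSO, and the replicates of compound 4 differed most. None of the 3 comparisons passed the threshold, with log2-fold changes of 0.43, 0.45 and 0.28 and adjusted p of 0.12, 0.1 and 0.39 in the edgeR test. The unadjusted p in the edgeR fit was 0.023 under compound 4 and 0.018 under compound 5, and 27.5% and 28.4% of all genes tested had an unadjusted p under 0.05 there, against 18.6% under compound 6. Under DESeq2's Wald test 0 of the 3 were called, and 1 of the 14 alternatives called ARNT under compound 4. That was the fit without compound 4 replicate 1, where the log2-fold change was 0.62 (adjusted p = 0.042), whereas without compound 4 replicate 2 it was 0.18 (0.58).

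TIPARP, a mono-ADP-ribosyltransferase that inactivates AHR in a feedback loop (chr3:156673235-156706770), overlapped with DMSO under every compound. Its level was 18.6 and 16.8 CPM in DMSO, 17.5 and 20.2 CPM under compound 4, 23.3 and 18.3 CPM under compound 5, and 17.4 and 19.3 CPM under compound 6. The log2-fold changes were 0.10 (95% interval −0.27 to 0.46), 0.23 (−0.13 to 0.59) and 0.06 (−0.31 to 0.43), with adjusted p of 0.74, 0.37 and 0.88 in the edgeR test. The upper bound under compound 4 corresponds to 1.38-fold, against the lower bound of 8.59-fold for CYP1A1 in the same libraries. The antisense gene TIPARP-AS1 had between 2 and 9 counts per library.

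Among the 3 genes other than CYP1A1, 0 of the 9 differences between compounds passed the edgeR threshold, and the adjusted p was at least 0.58. At an unadjusted p under 0.05, and by the Wald test of DESeq2, the number was also 0. Of all genes tested, 16.2%, 7.05% and 18.5% had such an unadjusted p for 4 against 5, 4 against 6 and 6 against 5. The intervals of the log2 differences reached from −0.37 to 0.33 and from −0.20 to 0.51 for ARNT under compound 4 against compounds 5 and 6. For TIPARP they reached from −0.49 to 0.22 and from −0.33 to 0.40.

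To compare levels between genes, CPM were divided by the GENCODE 29 exon length of each gene in kb. AHR was the most abundant of the 4 genes in every group, at 19.96 ± 2.08 CPM per kb (SD, n = 2) in DMSO and at 31.2 ± 1.86, 33.1 ± 10.9 and 32.0 ± 0.755 under compounds 4, 5 and 6. In DMSO it was followed by TIPARP at 3.496, ARNT at 2.97 and CYP1A1 at 1.55 CPM per kb, and the libraries of these genes did not overlap. Under compound 4, CYP1A1 moved to the second place at 18.7 ± 1.98 CPM per kb, followed by ARNT and TIPARP at 3.98 and 3.72, which overlapped. CYP1A1 remained last under compound 5 at 2.89 CPM per kb and was second under compound 6 at 5.64, and TIPARP and ARNT overlapped in both groups.

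**Figure D4:**
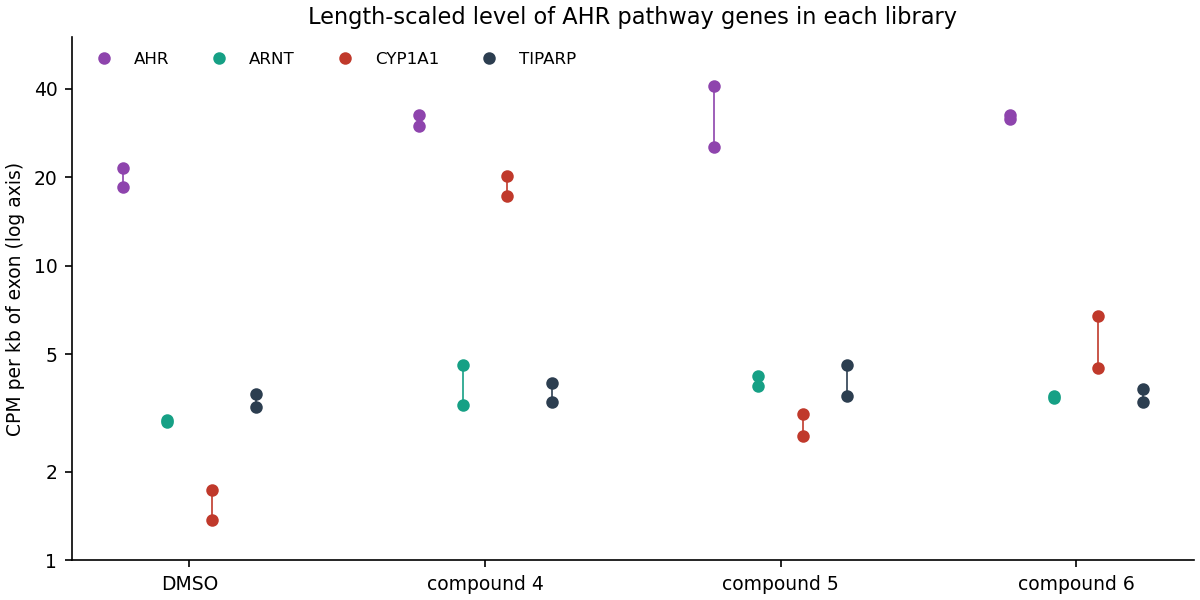
Level in CPM per kb of exon (log axis) of AHR, ARNT, CYP1A1 and TIPARP in each library of the 4 groups, with a line joining the replicates of a gene. AHR is highest throughout, and CYP1A1 goes from the lowest level in DMSO to second under compounds 4 and 6.

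By the likeness of their pattern over the 8 samples (Pearson's r of log2(CPM + 0.5), 12728 genes compared), the genes nearest to CYP1A1 were MFNG (r = 0.99), HINT1 (0.99) and SCARF2 (0.98). Their log2-fold changes under compound 4 were smaller than that of CYP1A1, at 0.53, 0.30 and 1.72. The nearest to AHR were FILIP1L, EIF2S3 and IBTK (each 0.98). RBL2 (0.99), FAM131A (0.98) and SMURF1 (0.97) were nearest to ARNT, and RFX3, MIDEAS and ZNF484 (each 0.96) to TIPARP. The libraries share 4 groups of 2, so these correlations are descriptions.

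Beyond the CYP1 genes, 20 genes known to respond to AHR ligands in some cell types were listed, of which 13 were tested and 6 had 0 counts in every library. CYP2S1, an extrahepatic P450 enzyme, was called under every compound, and EREG, an EGF receptor ligand, had the largest increase under compounds 4 and 5. Under compound 4, 4 genes rose (CYP2S1, SLC7A5, EREG and KYNU), 1 fell (GSTA1) and 8 did not pass, where 9.51% of all genes tested were called. The same 4 rose under compound 5, where 9 did not pass and 8.3% of all genes were called, and CYP2S1 alone rose under compound 6, where 0.575% were called. The median log2-fold change of the 13 was 0.60, 0.44 and 0.27 under compounds 4, 5 and 6, where the median of all genes tested was 0.01, 0.00 and 0.02. The list was chosen with earlier results of these data known, so its counts and medians are descriptions and not independent support.

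CYP2S1 had 26.9 and 21.0 CPM in DMSO, 69.5 and 82.4 CPM under compound 4, 61.99 and 49.7 CPM under compound 5, and 59.8 and 73.4 CPM under compound 6. Its log2-fold changes were 1.67, 1.22 and 1.48, with adjusted p of 0.00216, 0.00713 and 0.0232 in the edgeR test. These changes spanned a narrower range than those of CYP1A1, and the difference in range between the genes was not tested. The call under compound 4 held in 14 of 14 alternatives (adjusted p between 6.4e-24 and 0.039). It held in 13 under compound 5, where it was lost without DMSO replicate 2 (0.087), and in 11 under compound 6, where either DMSO library or compound 6 replicate 2 ended it (up to 0.28).

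EREG had 16.8 and 12.3 CPM in DMSO, 41.7 and 80.1 CPM under compound 4, 103.2 and 45.6 CPM under compound 5, and 52.98 and 102.4 CPM under compound 6. Its replicates lay far apart within each compound, but all were above DMSO, with log2-fold changes of 2.08, 2.35 and 2.42 and adjusted p of 0.0263, 0.0194 and 0.0541 in the edgeR test. KYNU, kynureninase of the tryptophan breakdown that yields AHR ligands, had 86.0 and 80.1 CPM in DMSO and between 143.3 and 232.3 CPM in the compound libraries, with log2-fold changes of 1.18, 1.22 and 1.06. SLC7A5, a carrier of large neutral amino acids, had 445.5 and 460.7 CPM in DMSO and between 555.0 and 745.0 CPM in the compound libraries, with log2-fold changes of 0.60, 0.67 and 0.44. The calls of EREG, KYNU and SLC7A5 held in 11 of 14 alternatives under compounds 4 and 5. They were lost without either DMSO library, without compound 4 replicate 2 (compound 4) and without compound 5 replicate 1 (compound 5), with adjusted p of up to 0.21.

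GSTA1, a glutathione transferase, fell under compound 4 by 1.67 on the log2 scale (adjusted p = 0.0496, edgeR), from 2.77 and 4.94 CPM in DMSO to 1.13 and 1.29 CPM. This call held in 7 of 14 alternatives, with adjusted p between 0.00059 and 0.36, and leaving out any DMSO, compound 4 or compound 6 library ended it. GSTA1 and GSTA2 are near-identical, as UGT1A1 and UGT1A6 share exons, so the counts of each are uncertain. IGFBP1, the most abundant gene of the list, had between 1015 and 4057 CPM and did not pass under any compound (log2-fold changes of 1.28, 0.68 and 0.94). NQO1 and ALDH3A1, classical members of the AHR gene battery, were chosen after their values were seen. The log2-fold changes of NQO1 were 0.01, 0.20 and 0.01, and those of ALDH3A1 were 1.23 (adjusted p = 0.0515, edgeR), −0.30 and 0.24, and neither gene was called. In the blocked fit, 8 of the 13 genes passed the threshold under compound 4 in place of 5. That count was 2 without DMSO replicate 1, 1 without DMSO replicate 2 or compound 4 replicate 2, and 8 without either compound 5 library, and the count over all genes moved in the same direction, to 390, 43, 152, and 1681 or 1661 from 1275. Under compound 5 the count of listed genes fell without either DMSO library or compound 5 replicate 1, and the count over all genes fell there too. Under compound 6 the count of listed genes fell without either DMSO library or compound 6 replicate 2. It rose without either compound 5 library or compound 4 replicate 2, and in all these fits the count over all genes moved in the same direction. Without compound 6 replicate 1 the count of listed genes rose while that over all genes fell.

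**Figure D5:**
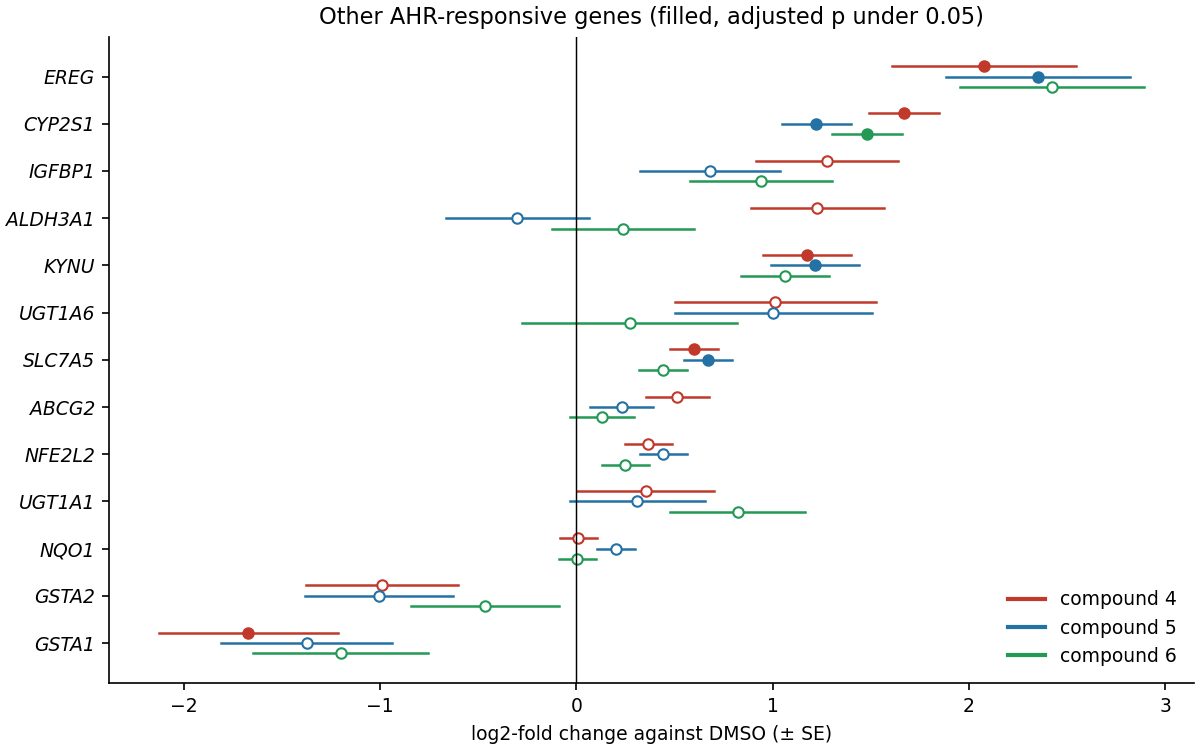
Log2-fold changes against DMSO (points) ± SE (lines) of the 13 other AHR-responsive genes tested, under compounds 4, 5 and 6, with filled points for an adjusted p under 0.05. CYP2S1 is filled under every compound, EREG, KYNU and SLC7A5 under compounds 4 and 5, and GSTA1 under compound 4.

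The chaperones and coactivators that hold or assist AHR did not pass the threshold. None of the 7 listed was called by edgeR under any compound, and at an unadjusted p under 0.05 the number was also 0 under compounds 4, 5 and 6. Of all genes tested, 9.51%, 8.3% and 0.575% were called there, and 27.5%, 28.4% and 18.6% had such an unadjusted p. HSP90AB1, the most abundant, had between 2615 and 3073 CPM and log2-fold changes of 0.11, 0.17 and 0.05.

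Of the other bHLH-PAS factors, which include the hypoxia and clock regulators that share ARNT or its fold, 8 of 9 were tested. HIF1A and NPAS2 rose under compounds 4 and 5, NPAS1 rose under compounds 4 and 6, and BMAL1 fell under compound 4. The share of all genes tested that was called was 9.51%, 8.3% and 0.575% under compounds 4, 5 and 6. HIF1A had 100.4 and 100.1 CPM in DMSO and between 131.9 and 165.6 CPM in the compound libraries, with log2-fold changes of 0.48, 0.59 and 0.53 (adjusted p = 0.0377, 0.0216 and 0.0727, edgeR). NPAS2 had log2-fold changes of 0.68, 0.73 and 0.54, and NPAS1 had 1.64, 0.91 and 1.79, the latter from 3.08 and 2.35 CPM in DMSO. BMAL1 had 5.64 and 5.53 CPM in DMSO, 3.28 and 2.97 CPM under compound 4, 5.93 and 5.75 CPM under compound 5, and 2.85 and 3.22 CPM under compound 6. Its call under compound 4 (log2-fold change −0.84, adjusted p = 0.0483, edgeR) was lost when any 1 of the 8 libraries was left out, with adjusted p of up to 0.23 over the alternatives. HIF1A was called in 8 of 14 alternatives under compound 4 and in 11 under compound 5, NPAS2 in 11 under each, and NPAS1 in 12 under compound 4 and in 10 under compound 6. Each of these calls was lost without DMSO replicate 2, and each except that of NPAS1 under compound 4 also without DMSO replicate 1. Those of HIF1A, NPAS2 and NPAS1 under compound 4 were lost without compound 4 replicate 2, those of HIF1A and NPAS2 under compound 5 without compound 5 replicate 1, and that of NPAS1 under compound 6 without either compound 6 library. HIF1A under compound 4 was also lost without compound 4 replicate 1 or either compound 6 library. EPAS1, the most abundant, had log2-fold changes of 0.41, 0.22 and 0.32 and was not called.

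In the kynurenine route, which supplies endogenous AHR ligands, 7 of 12 genes were tested, and the ligand-forming dioxygenases TDO2, IDO1 and IDO2 each had at most 1 count in all libraries together. KYNU was called higher under compounds 4 and 5, as above. HAAO, a later enzyme of the route, fell under compound 5 by 0.80 on the log2 scale (adjusted p = 0.0351, edgeR), from 31.2 and 26.2 CPM to 12.8 and 19.8 CPM, and this call held in 8 of 14 alternatives and was lost without either DMSO library, either compound 6 library or compound 5 replicate 1. Under compound 6, 0 of the 7 passed the edgeR threshold and 2 had an unadjusted p under 0.05. Over all genes tested, 0.575% were called and 18.6% had such an unadjusted p there, and 9.51% and 8.3% were called under compounds 4 and 5. QPRT, the most abundant of the route, had between 154.1 and 218.0 CPM and was not called.

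Of 11 other genes of xenobiotic oxidation, 7 were tested. The share of all genes tested that was called was 9.51%, 8.3% and 0.575% under compounds 4, 5 and 6. Under compound 6, 18.6% of all genes tested had an unadjusted p under 0.05 in the edgeR fit. CYP2B6, a target of the nuclear receptors CAR and PXR, rose under compounds 4 and 5, with 10.3 and 6.45 CPM in DMSO, 20.4 and 25.7 CPM under compound 4, and 29.8 and 15.4 CPM under compound 5. Its log2-fold changes were 1.48 and 1.43, with 1.62 under compound 6 (adjusted p = 0.0278, 0.0352 and 0.0581, edgeR). CYP3A5 rose under compound 4 by a log2-fold change of 2.27 (adjusted p = 0.00973, edgeR), from 4.41 and 2.35 CPM to 19.3 and 12.9 CPM, a smaller change than that of CYP1A1. The CYP2B6 calls held in 10 of 14 alternatives under each compound and that of CYP3A5 in 13, and all were lost without DMSO replicate 2. The CYP2B6 calls were also lost without DMSO replicate 1, without either compound 4 library (compound 4) and without compound 5 replicate 1 (compound 5). POR, the electron donor of all microsomal P450 enzymes, rose under compound 5 by 0.49 on the log2 scale (adjusted p = 0.0206, edgeR), a call that held in 11 of 14 alternatives and was lost without either DMSO library or compound 5 replicate 1. Under compound 6, 0 of the 7 passed the edgeR threshold and 2 had an unadjusted p under 0.05.

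The overexpressed gene CYP2C19 was detected in every library. CYP2C19 had 27.7 and 16.4 CPM in DMSO, 31.4 and 44.3 CPM under compound 4, 52.8 and 37.96 CPM under compound 5, and 23.9 and 21.2 CPM under compound 6. It was thus not constant across the groups, with log2-fold changes of 0.79, 1.05 and 0.04, of which the value under compound 5 was called (adjusted p = 0.0395, edgeR) and lost without either DMSO library, either compound 6 library or compound 5 replicate 1. Counts from the introduced and the native gene cannot be told apart.

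The genes listed as hepatocyte markers were present in every library, and 10 of 10 were tested. Their summed level was between 50570 and 54600 CPM in DMSO, 34970 and 42380 CPM under compound 4, 43290 and 44600 CPM under compound 5, and 37650 and 43760 CPM under compound 6. AFP, APOA1, APOB and TF, all secreted liver proteins, fell under compound 4, by 0.71, 0.90, 0.61 and 0.52 on the log2 scale, while ALB, the most abundant, was not called. These 4 calls held in 10 or 11 of 14 alternatives and were lost without either DMSO library and without compound 4 replicate 2, and that of APOB also without compound 4 replicate 1. Of 11 markers of other cell types, 5 were tested, PTPRC and VIM had 0 counts, and the summed level was between 2157 and 2507 CPM in DMSO and between 1750 and 2220 CPM in the compound libraries. CD68 rose under compound 4 (log2-fold change 0.80), ACTA2 fell under compound 5 (−0.997), and LYZ, the most abundant, was not called. Both calls held in 11 of 14 alternatives, that of CD68 being lost without DMSO replicate 2 or either compound 4 library and that of ACTA2 without either DMSO library or compound 5 replicate 1. These markers moved in the same libraries as CYP1A1 and AHR, and their part in those results was not tested. Over all genes tested, 9.51% were called under compound 4, 5.6% higher and 3.91% lower. Under compound 5, 8.3% were called, 2.95% of them lower as a share of all genes tested.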

How the data were processed

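RNA from 8 samples in 4 groups was sequenced as paired-end directional libraries. The column names of 2 libraries (replicate 1 of DMSO and of compound 4) call them merged, without saying what was merged. The authors quantified transcripts with Salmon 1.5.0 and collapsed them to 60230 genes through tximeta, and the deposited values are raw whole-number counts on GRCh38. Whether strand was used in counting is not given in the sources used here. The main test was that of edgeR 4.0.16 in R 4.3.3 (TMM, filterByExpr with a minimum count of 10, quasi-likelihood test without a block). The totals were between 9791659 and 17814595 counts, and floors and intervals cover counting and replicate error only. Alternatives were DESeq2 1.42.0 (Wald test), a replicate block, the 4 samples compared alone, DESeq2 size factors, library totals, no filter, and leaving out each library. The day in the labels is the source of the pairing, and across genes, pairs of groups correlated in their replicate 2 minus replicate 1 difference with r from −0.16 to 0.30. Permutation of 2 against 2 cannot go below a two-sided p of 0.333, so none was run. Simulated data were used to test the scripts. Positions and exon lengths are from GENCODE 29 on GRCh38, and promoters are from RefSeq on GRCh38.p14. The authors' index came from a later GENCODE release, so these lengths may not match the transcripts counted. Genes were named by rule: the 7 members, the genes of each list that were called, its most abundant gene, CYP2C19, and the 3 genes most like each member. Listed genes at or near 0 counts, NQO1, ALDH3A1, KRT19, EPCAM and genes that share sequence with another were named outside this rule, after their values were seen. The members and lists were chosen with earlier results of these data known, and some listed genes are not reported here.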

Additional observations from a re-analysis of the deposited data

How the results depend on the processing

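CYP1A1 under compound 4 against DMSO and against compound 5 kept its call under all 14 alternatives. The number of the 4 genes called under compound 4 was 1 as reported and 2 under the Wald test of DESeq2, the replicate block, the fit of only the 4 samples compared and no filter on low counts, and between 1 and 2 with 1 library left out. Under compound 5 it was 2 as reported, 1 with the replicate block, 0 in the fit of 4 samples and 0 with library totals alone, and between 0 and 2 with 1 library left out. Under compound 6 it was 1 as reported, 2 under the Wald test, the fit of 4 samples and no filter, and between 0 and 2 with 1 library left out. Between compounds 4 and 6 it was 0 as reported and 1 under the Wald test, library totals alone and no filter, and between 0 and 1 with 1 library left out. Between compounds 6 and 5 it was 0 as reported and 1 under the Wald test, library totals alone and no filter. Over all genes, 138 were called there as reported and 379, 212 and 990 in those fits. The number of other AHR-responsive genes called under compound 4 was 5 as reported, 8 with the replicate block, 8 in the fit of 4 samples, 10 without a filter, and between 1 and 8 with 1 library left out. Under compound 5 it was 4 as reported, 8 without a filter, and between 0 and 6 with 1 library left out. Under compound 6 it was 1 as reported, 4 under the Wald test, 3 in the fit of 4 samples, 3 with library totals alone, 6 without a filter, and between 0 and 3 with 1 library left out. The replicate block changed no call of a single gene of the 4 other than those of AHR under compound 4 and CYP1A1 under compound 5. Over all genes under compound 4, 1275 were called as reported, 1437 by the Wald test, 1699 with the block and 1553 in the fit of 4 samples. Without a filter 2383 of 23080 were called. Under compound 5 these were 1112, 1349, 1429 and 847, with 1035 for library totals and 2431 without a filter. Between compounds 4 and 6, 0 were called as reported, 59 by the Wald test, 5 with library totals and 259 without a filter.

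No called gene of the 4 changed direction. With 1 library left out, uncalled log2 differences ran through 0 for TIPARP under compound 4 (−0.014 to 0.18) and compound 6 (−0.018 to 0.12). Between compounds 4 and 5 they did so for AHR (−0.39 to 0.31), ARNT (−0.28 to 0.18) and TIPARP (−0.31 to 0.050), and between compounds 4 and 6 for AHR (−0.10 to 0.024), ARNT (−0.10 to 0.36) and TIPARP (−0.075 to 0.13). Between compounds 6 and 5 they did so for AHR (−0.35 to 0.33) and TIPARP (−0.35 to 0.0061). With library totals alone, the difference was 0.031 for ARNT between compounds 4 and 5 and 0.029 for AHR between compounds 6 and 5. The causes of these changes were not tested. Of all genes tested under compound 6, 77 were called as reported, 1023 in the fit of 4 samples, 1355 without a filter, 547 by DESeq2, 177 with library totals alone, 68 with the replicate block, 47 with DESeq2 size factors, and between 2 and 432 with 1 library left out.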
